A study of Mus musculus with 16 samples.

Results

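The pressure overload response described here is that of hearts lacking Cardinal, a long noncoding RNA of cardiac muscle. It was read from 8 of the 16 libraries of the series, namely the 4 knockout libraries labelled TAC (KO TAC) set against the 4 knockout libraries labelled sham (KO sham), chosen by genotype and operation alone. All 8 libraries are labelled Lnc39 knockout, and the Cardinal reads of 1 of them go against that label. In transverse aortic constriction (TAC) a ligature narrows the aorta and the left ventricle has to pump against a raised pressure, whereas sham animals went through the operation with no ligature. RNA came from the apex of the heart 4 weeks after the operation, was selected for poly(A) tails and was sequenced as paired reads of 150 bases. The study's mouse work used male animals, and the age of the mice, the deleted interval and the number of founder lines are not given in the sources used here. Control mice (Ctrl), labelled WT, went through the same operations in the other 8 libraries and appear below only where they are set beside the knockout values.

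The knockout libraries held between 57528685 and 79404714 counts, with 24943 to 26388 genes detected, and transcripts encoded by the mitochondrial genome took 27.1% to 28.4% of the counts in KO sham and 23.4% to 25.1% in KO TAC. Levels are given as CPM, the counts of a gene scaled to a common library size after TMM normalisation. Differences are log2 fold changes, KO TAC minus KO sham, from the quasi-likelihood test of edgeR. The standard errors (SE) after ± were worked back from that test, as the size of the difference over the square root of its F statistic. A gene was called higher or lower when its Benjamini-Hochberg adjusted p over all 18275 genes tested was under 0.05. The targeted gene was checked first. Cardinal (Gm12295, chr11:65277654-65365798, minus strand) had 35, 17, 27 and 31 counts in KO sham 1 to 4 and 25, 17, 24 and 377 counts in KO TAC 1 to 4. The library labelled KO TAC 4 thus stood apart from the other 7 knockout libraries, with 4.545 CPM (exact Poisson 95% interval 4.098 to 5.028, counting error only) against 0.276 to 0.553 CPM. Its level was near that of Ctrl mice, whose mean was 3.544 CPM after sham and 4.281 CPM after TAC. Over the 8 knockout libraries the difference of KO TAC and KO sham had an exact two-sided permutation p of 0.943 (70 relabellings). With the library labelled KO TAC 4 left out it had an exact p of 0.171 (35 relabellings). Because the knockout label of this library goes against its Cardinal reads, the counts were also made without it. Of the 199 called genes named in the text, 11 lost their call without it (Gja5, Gpc1, Adamts14, Mmp9, Rspo1, Bcat1, Zc3h15, Ccl24, Flt4, Reln and Gm38431), and 180 were called in each of the 16 fits that left out 1 library.

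When the heart is loaded with pressure, its muscle cells enlarge, re-express genes of the fetal heart, such as the natriuretic peptides, and change the isoforms of their contractile proteins. Fibroblasts become activated and lay down collagen, and the muscle shifts its fuel use away from fatty acids, which supply most of the energy of the adult heart. The results are ordered along these lines, from muscle genes through matrix and secreted signals to metabolism, translation, proliferation and the markers of other cell types.

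Of the 18275 genes tested, 6271 were called, 34.3% of all, with 3253 (17.8%) higher and 3018 (16.5%) lower in KO TAC. Counts of called members of gene lists below are to be read beside the shares of 17.8% and 16.5%. The KO sham and KO TAC libraries did not overlap for 34.6% of the genes tested. The median difference over all genes tested was -0.0039, the median over called genes was 0.55 among the rises and -0.42 among the falls, and 776 rises and 442 falls went past 1 log2 unit. Large changes leaned to the rises, with 175 rises and 74 falls past 2 log2 units. Without the library labelled KO TAC 4, 5740 of 18494 genes were called (31.0%), 16.4% higher and 14.7% lower. The fits shared 5466 genes, 87.2% of the 8-library calls and 95.2% of the 7-library calls, and all of them had the same direction in both.

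**Figure D1:**
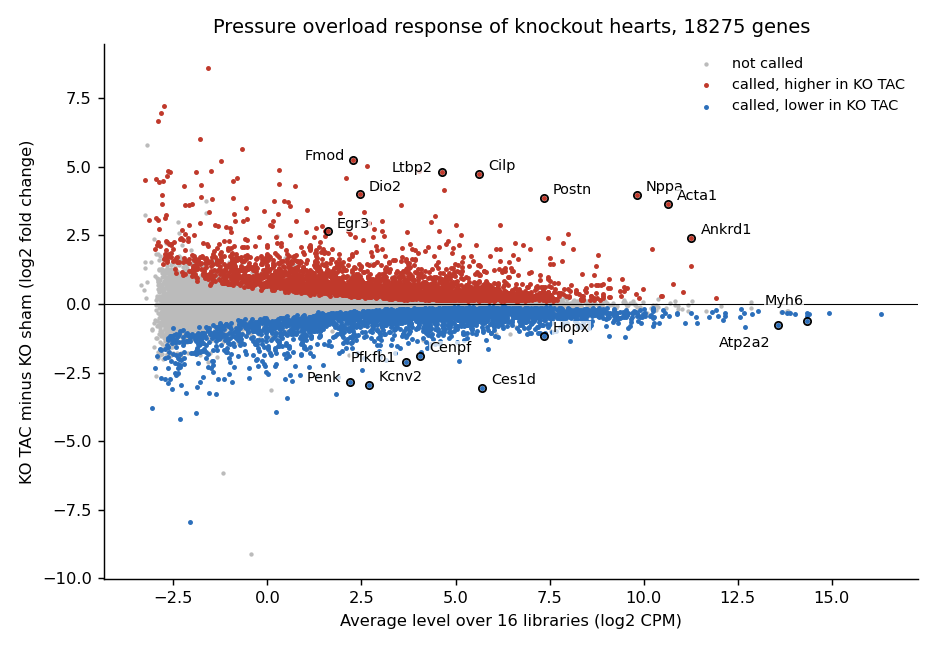
Log2 fold change of KO TAC against KO sham (vertical axis) by average level over the 16 libraries in log2 CPM (horizontal axis), 1 point per gene, called genes in red (higher in KO TAC) or blue (lower), with selected genes named. The 175 rises past 2 log2 units include Fmod, Ltbp2, Cilp, Postn, Nppa and Acta1, and the 74 falls of that size include Ces1d, Kcnv2, Penk and Pfkfb1.

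A principal component analysis of the 8 knockout libraries put the operations at opposite ends of the first component, which took 50.1% of the variance. KO sham libraries lay between -44.71 and -36.12 on it and KO TAC libraries between 32.65 and 44.78, the library labelled KO TAC 4 being the KO TAC library nearest to KO sham. The second component (10.6% of the variance) set KO sham 3 at 41.26 apart from the other 7 libraries, which lay between -20.47 and 7.907. KO sham 3 had 689 CPM of Hspa5, the main folding chaperone of the endoplasmic reticulum, against 389 to 442 CPM in the other KO sham libraries, and KO sham 4 had 441 CPM of Pdk4, the fasting-induced inhibitor of pyruvate dehydrogenase, against 155 to 209 CPM. Both genes were picked after their values were seen, to describe these libraries. The animal numbers of KO sham 1, 2 and 3 begin with 33 and those of no KO TAC animal do, and the meaning of these numbers is not given, so their part in a difference can be set apart from that of the operation only through KO sham 4 and the Ctrl sham libraries, 1 of which (Ctrl sham 4) has such a number. With these numbers as a term, 27 of the 199 called genes named in the text lost their call. Another series, numbers beginning with 25, holds Ctrl TAC 2, 3 and 4 and the library labelled KO TAC 4, and no sham animal. With that series as a term, 4 of the 199 lost their call. Both are meant where either animal number series is named below.

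Genes of cardiac hypertrophy were among the strongest rises. Nppa, which encodes atrial natriuretic peptide (chr4:148000722-148002079, plus strand), stood at 190, 124, 159 and 113 CPM in KO sham 1 to 4 and at 2320, 2537, 2446 and 1985 CPM in KO TAC 1 to 4. The groups were far apart, and the rise was 3.99 ± 0.35 (adjusted p = 2.09e-06). Nppb, encoding B-type natriuretic peptide, went from 41.5 to 126 CPM in KO sham to 445 to 535 CPM in KO TAC, a rise of 2.55 ± 0.37. Corin, the protease that cuts the atrial peptide precursor into its active form, moved the other way, from 202 to 239 CPM down to 121 to 139 CPM (it fell by 0.73 ± 0.09). Of the 7 natriuretic peptide and receptor genes tested, 3 rose (Nppa, Nppb and the clearance receptor Npr3), 2 fell (Corin and the protease Furin) and 2 did not pass the test (the receptors Npr1 and Npr2).

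Of 20 stretch-responsive and fetal muscle genes tested, 15 rose, 1 fell (Tnnt1, a slow skeletal troponin T) and 4 did not pass the test, with a median difference of 0.97. Acta1, the skeletal alpha-actin re-expressed in loaded hearts, had 324, 213, 242 and 152 CPM in KO sham and 3810, 2678, 2494 and 2793 CPM in KO TAC, and rose by 3.66 ± 0.30. Ankrd1, a titin-binding stress protein of the I-band, was tight within each group, at 771 to 937 CPM in KO sham and 4477 to 4662 CPM in KO TAC (a rise of 2.42 ± 0.14). Ccn2, the matricellular growth factor CTGF, rose by 2.41 ± 0.19. Fhl1, a LIM-domain protein of the stretch-sensing complex on titin, had 102, 95.7, 108 and 104 CPM in KO sham and 277, 202, 282 and 367 CPM in KO TAC and rose by 1.46 ± 0.18, while its relative Fhl2 had 1155 to 1337 CPM in KO sham and 1125 to 1226 CPM in KO TAC, with overlapping groups (adjusted p = 0.588). Acta2, the smooth muscle actin also used as a marker of myofibroblasts, differed by 0.08 ± 0.15 (adjusted p = 0.712).

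The promoters of Acta1 and Fhl1 are printed because both genes rose and both hold a CArG box, the element bound by serum response factor. Sequences are the 250 bases before the RefSeq start of the gene (assembly GRCm38.p6), written 5′ to 3′ on the strand of the gene with the CArG box in capitals. Its first base lies at position -73 from the start in Acta1 and at position -102 in Fhl1.
Acta1 promoter, chr8:123894776-123895025, minus strand: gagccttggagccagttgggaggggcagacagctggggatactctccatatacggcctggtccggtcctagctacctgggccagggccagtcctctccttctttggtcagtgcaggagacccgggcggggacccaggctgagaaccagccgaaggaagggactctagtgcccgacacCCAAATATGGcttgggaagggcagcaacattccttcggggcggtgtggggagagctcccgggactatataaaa
Fhl1 promoter, chrX:56779433-56779682, plus strand: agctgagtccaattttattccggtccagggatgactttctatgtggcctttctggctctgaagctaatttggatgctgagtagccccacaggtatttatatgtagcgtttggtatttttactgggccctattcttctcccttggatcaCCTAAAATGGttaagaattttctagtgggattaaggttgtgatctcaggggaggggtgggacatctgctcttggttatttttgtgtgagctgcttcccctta
Such a box, searched on both strands, was held by 3 of the 16 stretch and fetal genes with a promoter in the RefSeq table (Acta1, Fhl1 and Fhl2), against 1.46% of the 12215 tested genes and 1.62% of all 27025 genes with one. It was held by 1 of 16 immediate early genes (6.25%) and 1 of 36 cell cycle genes (2.78%). A match describes the letters only, and Fhl2, with no called change, holds one as well.

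Contractile and calcium-handling lists had falls above the share over all genes tested, and rises near or below it. Among 23 sarcomere genes, 4 rose (Neb, Mybpc3, Myom1 and Lmod2), 9 fell and 10 did not pass the test, with a median of -0.08. The rises were 17.4% of the list, beside 17.8% of all genes tested, and the falls 39.1%, beside 16.5%. With the animal numbers beginning with 33 as a term Neb, Mybpc3 and Lmod2 were not called, and Mybpc3 was not called without KO sham 3, KO sham 4 or KO TAC 3. Myh7, the slow beta-myosin heavy chain, went from 1543, 1390, 1296 and 1545 CPM in KO sham to 2890, 3494, 5089 and 3580 CPM in KO TAC, a rise of 1.38 ± 0.21, and Myh6, the fast alpha-myosin heavy chain of the adult mouse heart, from 26730, 22340, 21740 and 24080 CPM to 15200, 14570, 16070 and 15510 CPM, so that it fell by 0.63 ± 0.08. Mhrt, a noncoding RNA antisense to Myh7, fell by 1.63 ± 0.10, and without strand in the counting its reads cannot be told apart from those of Myh7 where they overlap. Tnni3, cardiac troponin I, fell by 0.68 ± 0.07 with groups of 2599 to 2698 CPM and 1543 to 1739 CPM, while Actc1, cardiac alpha-actin, differed by 0.06 ± 0.06 (adjusted p = 0.471).

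Of 22 genes of the sarcoplasmic reticulum and calcium handling, 8 fell (36.4%), 3 rose (13.6%: Casq2, S100a1 and Fkbp1b) and 11 did not pass the test, with a median of -0.07. Atp2a2, the calcium pump SERCA2 that refills the reticulum, stood at 14760, 14450, 14360 and 14690 CPM in KO sham and at 8969, 8089, 8558 and 8536 CPM in KO TAC. The libraries of each group lay close together, and the fall was 0.77 on the log2 scale (SE 0.06, adjusted p = 2.08e-08). Its inhibitor phospholamban (Pln) fell by 0.58 ± 0.07, and Hrc, a calcium-binding protein of the reticulum, fell by 0.88 ± 0.06.

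Potassium channel genes mostly fell: 13 of 22 were called lower, 2 higher (Kcne1 and Kcnt2) and 7 did not pass the test, with a median of -0.42. Kcnv2, a modifying subunit of voltage-gated potassium channels, had 10.4, 9.71, 8.38 and 14.02 CPM in KO sham and 1.57, 1.67, 0.982 and 1.31 CPM in KO TAC, and fell by 2.94 ± 0.21. Kcnip2, the partner subunit of the channels of the transient outward current, fell by 1.06 ± 0.08, as did Kcnj3, an inward rectifier opened by acetylcholine, by 1.06 ± 0.17. The 13 sodium, pacemaker and gap junction genes were split, with 4 rises, among them Scn3b, Gja5 and Gjc1, with 3 falls (Scn10a, Hcn2 and Gja3) and 6 without a call. Gja5 was not called without the library labelled KO TAC 4 (adjusted p = 0.0684), in the fit to the 8 knockout libraries alone or with either animal number series as a term, and Hcn2 was not called with the numbers beginning with 33 as a term.

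**Figure D2:**
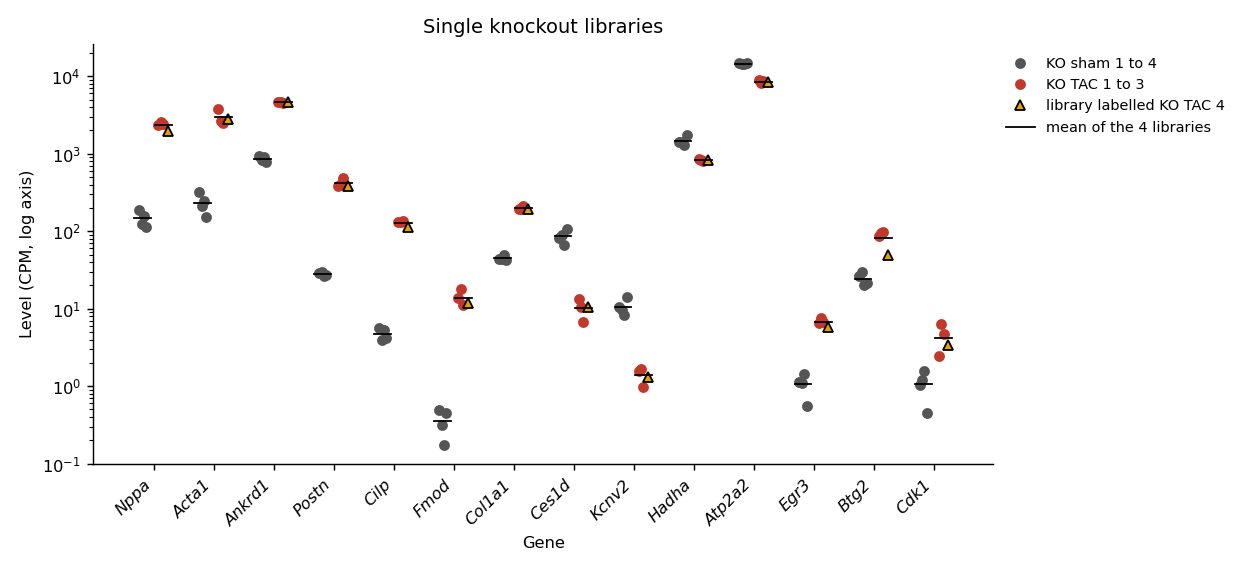
CPM (log axis) of named genes in the single knockout libraries, KO sham in grey, KO TAC 1 to 3 in red, the library labelled KO TAC 4 as a yellow triangle, and the mean of the 4 libraries of a group as a bar. For each gene shown the KO sham and KO TAC libraries do not overlap, as for 34.6% of all genes tested. The rule for the largest rises and falls admitted only such genes. For Btg2 the triangle, at 49.5 CPM, lies nearest to the KO sham libraries.

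Extracellular matrix genes rose together. Of 9 fibrillar collagens, 8 rose and 1 fell (Col11a2), with a median of 1.69. Col1a1, the chain that builds most of the stiff scar collagen, stood at 43.8, 44.1, 48.7 and 42.1 CPM in KO sham and at 194, 194, 208 and 192 CPM in KO TAC, a rise of 2.14 ± 0.11 with an adjusted p of 1.28e-09. Col3a1 rose by 2.23 ± 0.14 and Col5a2 by 2.17 ± 0.09, the latter tied with Col5a1 for the smallest adjusted p of the comparison (1.56e-10). Of 27 other collagens, 18 rose, 8 did not pass the test and 1 fell (median 1.10). Col12a1, a collagen on the surface of fibrils, went from 1.04 to 1.74 CPM up to 12.7 to 18.3 CPM (3.36 ± 0.19), and Col8a1, a short-chain collagen of remodelled tissue, rose by 2.88 ± 0.14. The exception was Col6a6, a chain of the microfibrillar collagen VI, with 8.77, 8.48, 6.11 and 11.9 CPM in KO sham and 2.20, 1.77, 0.905 and 1.81 CPM in KO TAC (it fell by 2.40 ± 0.25).

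Fmod, the collagen-binding proteoglycan fibromodulin (chr1:134037254-134048277, plus strand), had the largest rise among called genes with an average of at least 2 log2 CPM and no overlap of the groups, predicted genes left out. It had 0.490, 0.315, 0.172 and 0.457 CPM in KO sham and 13.9, 18.2, 11.0 and 11.9 CPM in KO TAC, a difference of 5.25 ± 0.50. Next came Ltbp2, a protein of elastic microfibrils (1.87 to 2.86 CPM against 58.9 to 84.2 CPM, 4.81 ± 0.33), and Cilp, a matrix protein of activated fibroblasts (3.94 to 5.56 CPM against 113 to 137 CPM, 4.75 ± 0.32). Postn, periostin, the standard marker of activated cardiac fibroblasts, held 28.9, 29.5, 26.4 and 27.3 CPM in KO sham and 385, 403, 486 and 378 CPM in KO TAC, and rose by 3.88 ± 0.20. Thbs4, a thrombospondin of loaded muscle, rose by 4.16 ± 0.26.

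By class, 16 of 20 matricellular proteins rose (median 1.56), 1 fell (Thbs2) and 3 did not pass the test, and 14 of 19 proteoglycans rose (median 0.94), 1 fell (Gpc1) and 4 did not pass. Gpc1 was not called without KO sham 1, KO TAC 2 or the library labelled KO TAC 4 (adjusted p = 0.0714 without the last), nor with the animal numbers beginning with 33 as a term. Fibronectin (Fn1) rose by 1.25 ± 0.07 from 37.8 to 44.1 CPM up to 95.2 to 101 CPM. Among 17 elastic fibre genes 13 rose, 3 fell (Efemp1, Emilin2 and Ltbp1) and Fbn2 had no call (median 0.89), with Fbn1, the main fibrillin, at 36.3, 38.5, 38.8 and 34.1 CPM in KO sham and 173, 157, 194 and 159 CPM in KO TAC (2.21 ± 0.13). Efemp1, the elastic fibre protein fibulin-3, fell by 1.96 ± 0.19. Enzymes that process and cross-link collagen rose in 14 of 23 cases, fell in 2 (P3h4 and Adamts14) and had no call in 7 (median 0.43). The Adamts14 call was lost without the library labelled KO TAC 4 (adjusted p = 0.0602) and without any of KO sham 2, 3 and 4 and KO TAC 1 and 2. Lox, lysyl oxidase, rose by 2.65 ± 0.18 and Loxl2 by 2.20 ± 0.11, whereas Serpinh1, the collagen chaperone, overlapped between the groups (115 to 209 CPM and 151 to 191 CPM, adjusted p = 0.956).

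Among 30 matrix proteases and their inhibitors, 17 rose, 3 fell (Mmp9, Mmp15 and Timp4) and 10 did not pass the test (median 0.55). The call of Mmp9 was lost without KO sham 4, KO TAC 3 or the library labelled KO TAC 4 (adjusted p = 0.0613 without the last), and that of Timp4 without KO sham 3, KO sham 4, KO TAC 1 or KO TAC 3. Timp1, an inhibitor of matrix metalloproteinases, had 1.34, 1.29, 2.05 and 0.914 CPM in KO sham and 6.79, 7.67, 8.12 and 12.8 CPM in KO TAC, the highest value being that of the library labelled KO TAC 4, and the rise was 2.66 ± 0.23 with it and 2.42 without it. Timp3, another such inhibitor, had overlapping groups (232 to 345 CPM and 259 to 321 CPM). Of 24 integrins and laminins 15 rose, 1 fell (Lama5) and 8 had no call (median 0.33). Itgbl1, an integrin-beta-like secreted protein, rose by 2.28 ± 0.15.

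**Figure D3:**
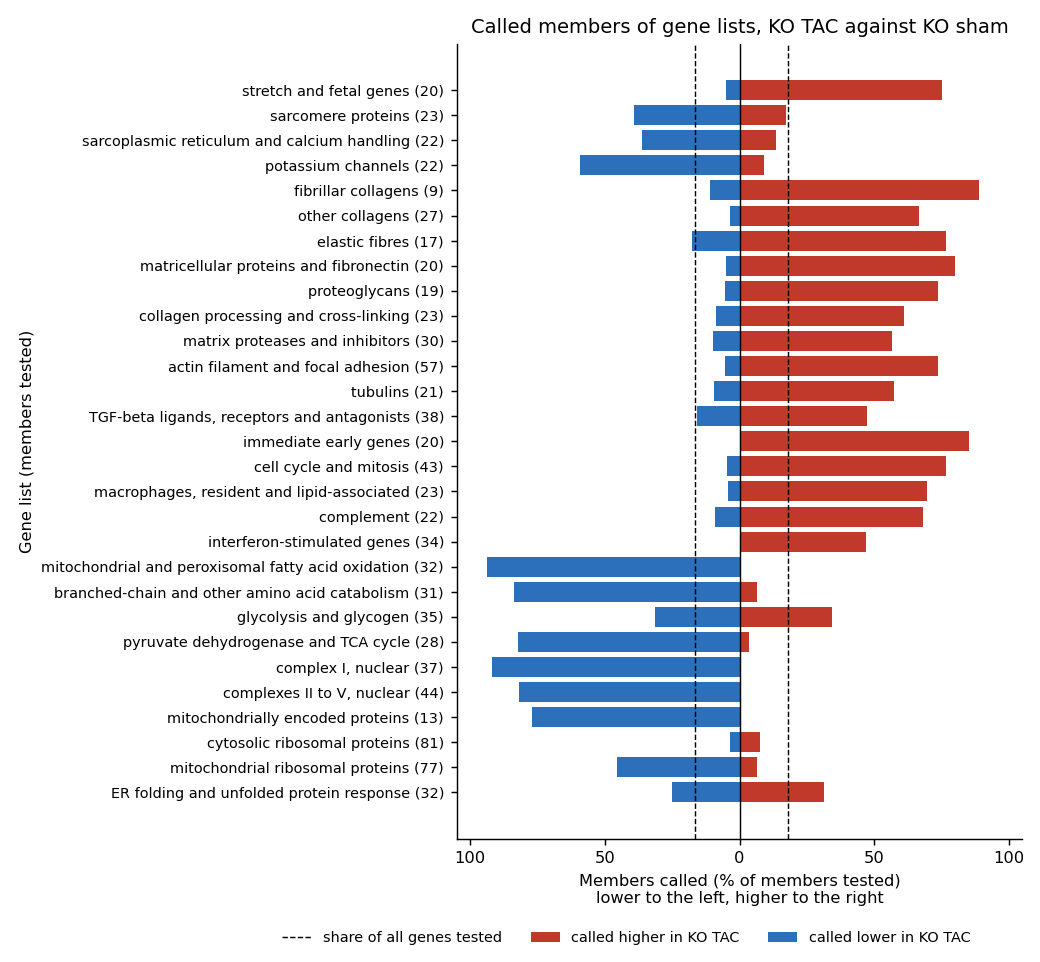
Share of the tested members of each gene list that were called higher (red, to the right) or lower (blue, to the left) in KO TAC, with the number of tested members in brackets and dashed lines at the shares over all genes tested, 17.8% and 16.5%. Matrix lists extend to the right and fuel and respiratory chain lists to the left, with 30 of 32 fatty acid oxidation genes lower.

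Secreted signals and their receptors were next. Of 38 genes for TGF-beta family ligands, receptors and antagonists, 18 rose, 6 fell and 14 had no call (median 0.34). The ligand Gdf6 rose by 2.83 ± 0.26 and Gdf15, a circulating stress signal, by 2.32 ± 0.41, and Fstl1, a secreted glycoprotein of injured hearts, went from 50.1 to 65.2 CPM to 213 to 245 CPM (2.01 ± 0.10). Eng, the endothelial co-receptor endoglin, had overlapping groups (adjusted p = 0.249). Of 18 secreted Wnt modulators and ligands, 8 rose, 3 fell (Sfrp5, Wif1 and Rspo1) and 7 had no call (median 0.75). Rspo1 was not called without the library labelled KO TAC 4 (adjusted p = 0.0972), without KO sham 1, 3 or 4 or KO TAC 1, or with either animal number series as a term, and Wif1 was not called with the numbers beginning with 33 as a term. The Wnt antagonists Dkk3, Sfrp2 and Frzb rose by 2.94 ± 0.22, 2.55 ± 0.23 and 2.49 ± 0.17. Igf1 rose by 1.12 ± 0.16 and its binding protein Igfbp7 by 1.46 ± 0.09 in an IGF list with 6 rises, 2 falls (Htra1 and Pappa) and 5 genes without a call (median 0.31).

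Dio2, the deiodinase that makes active thyroid hormone inside cells, had 0.869, 1.19, 1.10 and 0.545 CPM against 10.1, 12.9, 24.9 and 11.7 CPM (4.00 ± 0.35), and the thyroid hormone receptor gene Thrb fell by 0.48 ± 0.10. In KO TAC 3 the Dio2 level was the highest of the group. Penk, the enkephalin precursor, fell from 6.06 to 8.93 CPM to 0.568 to 1.23 CPM (it decreased by 2.86 ± 0.23). Ace, the angiotensin-converting enzyme, rose by 1.22 ± 0.14 and Edn3, an endothelin, by 1.66 ± 0.28, in a list of 26 angiotensin, endothelin, adrenergic and cAMP genes with 6 rises, 8 falls and 12 without a call (median -0.04).

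Genes of fatty acid oxidation fell almost as a block: 30 of 32 were called lower, 2 did not pass the test (Cpt1a and Acot13) and the median was -0.60. Hadha, the long-chain subunit of the trifunctional protein, had 1405, 1425, 1281 and 1718 CPM in KO sham and 866, 840, 795 and 841 CPM in KO TAC, and fell by 0.80 ± 0.08. Acaa2, the last thiolase of the mitochondrial pathway, fell by 1.16 ± 0.11, and Cpt1b, which carries out the entry step of fatty acids into muscle mitochondria, by 0.37 ± 0.07. The summed level of the list was 11700 to 14270 CPM in KO sham and 7777 to 8412 CPM in KO TAC. KO sham 4 was the highest sham library for several fuel genes, with Acot1, a thioesterase induced by fatty acids, at 18.3 CPM against 7.39 to 8.51 CPM in the other KO sham libraries and 2.27 to 3.29 CPM in KO TAC. Of 14 uptake and activation genes 7 fell, 1 rose (Acsl5) and 6 had no call, with Cd36, the fatty acid importer, at -0.53 ± 0.07 and Fabp3, the muscle fatty acid binding protein, overlapping between the groups (adjusted p = 0.801).

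At the other end, with the same limits on average level and overlap, the largest fall was that of Ces1d, a carboxylesterase that hydrolyses stored lipid (chr8:93166068-93197838, minus strand). It had 81.7, 89.7, 65.7 and 106 CPM in KO sham and 13.5, 10.4, 6.72 and 10.6 CPM in KO TAC, and fell by 3.06 ± 0.27. The carboxylesterase genes are similar copies in a cluster, so reads could be split among them. Of 17 lipid storage genes 9 fell, 1 rose (Cidea) and 7 had no call (median -0.24), and Plin4, a lipid droplet coat protein, fell by 0.97 ± 0.15.

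Catabolism of branched-chain and other amino acids gave 26 falls among 31 genes, 2 rises, among them Bcat1, and 3 genes without a call (median -0.57). Bcat1 was not called without the library labelled KO TAC 4 (adjusted p = 0.0709), without KO sham 1, KO sham 2 or KO TAC 3, or with the animal numbers beginning with 33 as a term. Ppm1k, the phosphatase that switches on the branched-chain ketoacid dehydrogenase, fell by 1.16 ± 0.11, and Prodh, proline dehydrogenase, by 1.04 ± 0.10. Among 28 genes of pyruvate dehydrogenase and the TCA cycle 23 fell, 1 rose (Pdk3) and 4 had no call (median -0.40). Pdp2, the phosphatase that activates pyruvate dehydrogenase, went from 26.7 to 32.9 CPM to 13.7 to 16.3 CPM. Pdk4, its fuel-sensing kinase, had 155, 209, 161 and 441 CPM in KO sham and 169, 109, 104 and 103 CPM in KO TAC, and with overlapping groups it did not pass the test (-0.99 ± 0.40, adjusted p = 0.0746).

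Glycolysis and glycogen genes did not move together, with 12 rises, 11 falls and 12 genes without a call among 35 and a median of 0.03. Isoforms of the same step moved in opposite directions. Pfkp, the platelet form of phosphofructokinase, had 45.2, 40.1, 50.2 and 38.1 CPM in KO sham and 102, 100, 114 and 108 CPM in KO TAC (a rise of 1.29 ± 0.16), while Pfkm, the muscle form, fell by 0.54 ± 0.06 from 846 to 961 CPM to 620 to 652 CPM. Hk1 rose by 0.46 ± 0.07 and Hk2, the insulin-responsive hexokinase, fell by 0.32 ± 0.07. Pfkfb1, the liver and muscle form of the enzyme that sets the level of the main activator of phosphofructokinase, fell by 2.12 ± 0.26, and Slc16a3, the lactate exporter MCT4, rose by 1.5 ± 0.17 from 1.38 to 2.32 CPM to 4.26 to 6.04 CPM. Pygb, the brain form of glycogen phosphorylase, differed by 0.01 ± 0.08 (adjusted p = 0.969).

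The respiratory chain was lower by small and even amounts. Of 37 nuclear genes of complex I, 34 fell and 3 had no call (Ndufa11, Ndufb3 and Ndufc1), with a median of -0.34. Of 44 nuclear genes of the other complexes, 36 fell and 8 had no call (median -0.35), and of 13 proteins encoded by the mitochondrial genome 10 fell and 3 had no call (median -0.34). Sdha, the catalytic subunit of succinate dehydrogenase, stood at 1427, 1457, 1400 and 1547 CPM in KO sham and at 898, 905, 886 and 914 CPM in KO TAC, and fell by 0.69 ± 0.05. Ndufs1, the largest subunit of complex I, fell by 0.53 ± 0.06 from 667 to 738 CPM to 475 to 497 CPM. The mitochondrial transcript mt-Co1 went from 89070 to 95410 CPM down to 68590 to 72620 CPM, and mt-Co3 had no call (-0.27 ± 0.12, adjusted p = 0.0795).

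Among 19 regulators of metabolism 12 fell, none rose at this threshold and 7 had no call (median -0.26). Klf15, a glucocorticoid-responsive factor of lipid and amino acid use, went from 47.0 to 71.5 CPM to 24.3 to 29.2 CPM and fell by 1.10 ± 0.15. Ppargc1a, the coactivator PGC-1 alpha of mitochondrial biogenesis, had 143, 145, 125 and 122 CPM in KO sham and 89.7, 73.2, 65.3 and 120 CPM in KO TAC. The library labelled KO TAC 4 lay just under the lowest KO sham library, and the fall was 0.62 on the log2 scale with it (adjusted p = 0.0464) and 0.82 without it. The call was lost on leaving out any 1 of KO sham 1 to 4, KO TAC 1 to 3, Ctrl sham 1, Ctrl sham 3 or Ctrl TAC 2, or with the animal numbers beginning with 33 as a term.

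Cardinal was studied for its tie to the ribosome and to DRG1, a GTPase that binds translating ribosomes, so translation genes were read in full. The 81 cytosolic ribosomal protein genes barely moved, with 6 rises, 3 falls (Rpl3l, Rpl22l1 and Rps2), 72 genes without a call and a median of 0.04. Rplp0, a stalk protein of the large subunit, differed by -0.02 ± 0.04. The clear exception was a paralogue pair at the peptidyl transferase centre. Rpl3l, the striated muscle form (chr17:24727820-24736143, plus strand), had 181, 174, 200 and 200 CPM in KO sham and 100, 94.8, 81.2 and 90.8 CPM in KO TAC and fell by 1.04 ± 0.08, whereas Rpl3, the general form (chr15:80077791-80091868, minus strand), had 130, 129, 123 and 123 CPM against 174, 204, 203 and 200 CPM and rose by 0.63 ± 0.07. The elongation factor pair moved alike, Eef1a1, the general form, rising by 0.48 ± 0.05 and Eef1a2, the muscle and nerve form, falling slightly (-0.17 ± 0.05, adjusted p = 0.00904). Genes such as Rpl3 and Eef1a1 have processed copies elsewhere in the genome that can share reads.

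Of 52 initiation and elongation factors, 9 rose (17.3%), 7 fell (13.5%) and 36 had no call (median 0.03). These shares were near those over all genes tested, 17.8% and 16.5%. Eif4ebp2, a repressor of cap-dependent initiation, had 86.5 to 91.0 CPM in KO sham and 58.6 to 67.0 CPM in KO TAC. Drg1 had 32.98, 31.5, 33.4 and 33.9 CPM in KO sham and 34.1, 37.4, 34.9 and 36.3 CPM in KO TAC, groups that did not overlap, but the difference of 0.11 ± 0.05 did not pass the test (adjusted p = 0.0597). Its partner Zc3h15, also named DFRP1, rose by 0.16 ± 0.05 (adjusted p = 0.0303, and 0.0659 once the library labelled KO TAC 4 was left out). The Zc3h15 call was also lost without any 1 of KO sham 2, 3 and 4 and KO TAC 1 and 2. Pelo, which frees stalled ribosomes, rose by 0.34 ± 0.08. Mitochondrial ribosomal proteins tended down instead, with 35 falls, 5 rises (Mrpl20, Mrpl43, Mrpl53, Mrps23 and Mrps34) and 37 genes without a call among 77 (median -0.13), and Mrpl39 fell by 0.60 ± 0.04.

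Stress response genes gave mixed counts. Of 27 genes of the ATF4 and mitochondrial stress response 12 rose, 5 fell (Aldh1l2, Chac1, Hspd1, Psph and Clpp) and 10 had no call (median 0.33). Atf3, a stress-induced transcription factor, had 8.71, 9.03, 4.05 and 3.80 CPM in KO sham and 33.9, 45.3, 18.9 and 19.8 CPM in KO TAC, a rise of 2.20 ± 0.55 with wide spread inside each group, and Nupr1, a small stress-induced nuclear protein, rose by 1.89 ± 0.20. Folding genes of the endoplasmic reticulum were split into 10 rises, 8 falls and 14 without a call (median -0.06), with Herpud1, a factor of protein export for degradation, at -1.07 ± 0.14. Among 21 heat shock chaperones 6 rose and 15 had no call (median -0.02), and Hspb6, a small heat shock protein of muscle, rose by 0.61 ± 0.05. Hspa1a, the inducible chaperone HSP70, ranged from 5.15 to 158 CPM in KO sham and from 15.6 to 99.2 CPM in KO TAC, so that the groups overlapped (adjusted p = 0.711).

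Of 39 redox enzymes and NADPH oxidases 11 rose, 13 fell and 15 had no call (median -0.08). Nox4, an NADPH oxidase that makes hydrogen peroxide, had 0.790, 0.945, 1.10 and 1.05 CPM in KO sham and 6.82, 5.75, 7.15 and 5.16 CPM in KO TAC (2.67 ± 0.23), and Gstk1, a glutathione transferase of mitochondria and peroxisomes, fell by 1.09 ± 0.07. Among 32 atrophy, autophagy and lysosome genes 8 rose, 6 fell and 18 had no call (median -0.08). Ctsk, the collagen-degrading cathepsin K, rose by 1.54 ± 0.13, and Pink1, the kinase that marks damaged mitochondria, fell by 0.79 ± 0.07.

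Cytoskeletal genes leaned clearly to the rises. Of 57 actin filament and focal adhesion genes, 42 rose, 3 fell, among them Lims2 and Coro6, and 12 had no call, with a median of 0.41. Synpo2l, an actin-bundling protein of the heart, went from 111, 102, 143 and 122 CPM to 288, 328, 462 and 354 CPM (1.58 ± 0.20), and Capg, an actin filament capping protein, rose by 1.26 ± 0.11. Of 21 tubulin genes and enzymes 12 rose, 2 fell (Ttll1 and Tuba4a) and 7 had no call (median 0.24). Desmin (Des), the intermediate filament of muscle, rose by 0.72 ± 0.06 from 1308 to 1463 CPM to 2185 to 2314 CPM, and Vim by 0.76 ± 0.07. Among 39 cardiac and fibroblast transcription factors 15 rose, 6 fell and 18 had no call (median 0.18). Sox9 and Scx, factors of matrix-forming cells, rose by 2.05 ± 0.22 and 1.38 ± 0.18, while Hopx, a cofactor of serum response factor in muscle, had 227, 215, 186 and 228 CPM in KO sham and 92.6, 100, 82.2 and 106 CPM in KO TAC and fell by 1.17 ± 0.11. Myocd, the neighbour of Cardinal and a coactivator of serum response factor, differed by 0.13 ± 0.11 (adjusted p = 0.371).

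Immediate early genes, the transcription factors switched on within minutes of a stimulus, were higher in KO TAC at 4 weeks. Of 20 tested, 17 rose, none fell and 3 did not pass the test (Nr4a1, Dusp1 and Klf2), with a median of 1.08. Egr3 had 1.14, 1.10, 1.43 and 0.562 CPM in KO sham and 6.46, 7.60, 6.67 and 5.81 CPM in KO TAC, and rose by 2.64 ± 0.25. Fos had 2.01, 1.84, 1.48 and 1.00 CPM against 4.99, 6.89, 10.3 and 1.86 CPM, so that the library labelled KO TAC 4 lay inside the KO sham range, and the rise was 1.91 ± 0.60 with it and 2.22 without it. Fos was not called without KO sham 3, KO sham 4 or KO TAC 3, or with the animal numbers beginning with 33 as a term. Btg2, an antiproliferative early gene, had 86.4, 94.2, 98.7 and 49.5 CPM in KO TAC against 19.99 to 29.4 CPM in KO sham. The summed level of the list was 412 to 540 CPM in KO sham, 853 to 942 CPM in KO TAC 1 to 3 and 620 CPM in the library labelled KO TAC 4, and without that library 17 members still rose, with a median of 1.24. The count of rises was 11 without KO sham 4 and 12 without KO sham 3.

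In Ctrl mice, whose TAC comparison called 10.4% of all genes higher and 9.6% lower, 4 of the 20 immediate early genes were called higher and none lower, with a median of 0.20. The genotype by surgery interaction tests the difference between these effects. For Btg2 the effect was 1.76 in KO and 0.45 in Ctrl (interaction adjusted p = 0.26), and for Fos it was 1.91 and -0.68 (interaction adjusted p = 0.294). Over the list, 7 members had an unadjusted interaction p under 0.05, beside 11.1% of all genes tested, and none of the 20 passed the adjusted test. Ctrl TAC 2, 3 and 4 have animal numbers beginning with 25, and in KO TAC only the library labelled KO TAC 4 does. Genotype and number series thus cannot be fully told apart wherever Ctrl TAC values are set beside those of KO TAC.

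Cell cycle and mitosis genes rose in 33 of 43 cases, fell in 2 (Cenpf and the cyclin-dependent kinase inhibitor Cdkn1c) and had no call in 8 (median 1.16, and 34 rises with a median of 1.26 without the library labelled KO TAC 4). Ccnb1, cyclin B1 of mitotic entry, had 0.949, 1.10, 1.31 and 0.650 CPM in KO sham and 2.63, 5.89, 4.62 and 3.91 CPM in KO TAC, and rose by 2.08 ± 0.28. Cdk1, the kinase it activates, rose by 1.97 ± 0.38, with KO TAC 1 lowest of its group at 2.45 CPM and KO sham at 0.457 to 1.55 CPM. Rrm2, a subunit of ribonucleotide reductase, rose by 1.90 ± 0.33. Cenpf went against the list, with 35.1, 32.5, 18.04 and 23.9 CPM in KO sham and 5.81, 7.31, 9.33 and 7.08 CPM in KO TAC (-1.89 ± 0.22). In Ctrl mice 12 of the 43 were called higher and 1 lower, beside 10.4% and 9.6% of all genes, with a median of 0.36. The Ccnb1 effects were 2.08 in KO and 0.93 in Ctrl (interaction adjusted p = 0.294). An unadjusted interaction p under 0.05 was found for 18 of the 43, beside 11.1% of all genes tested, and none passed after adjustment over all genes.

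The promoters of Ccnb1 and Cdk1 are printed because both rose with the mitotic genes and both hold CCAAT, the box bound by the factor NF-Y, in more than 1 copy. They are again the 250 bases before the RefSeq start (GRCm38.p6), 5′ to 3′ on the strand of the gene, with each CCAAT in capitals, or its reverse complement ATTGG where the box is on the other strand.
Ccnb1 promoter, chr13:100786487-100786736, minus strand: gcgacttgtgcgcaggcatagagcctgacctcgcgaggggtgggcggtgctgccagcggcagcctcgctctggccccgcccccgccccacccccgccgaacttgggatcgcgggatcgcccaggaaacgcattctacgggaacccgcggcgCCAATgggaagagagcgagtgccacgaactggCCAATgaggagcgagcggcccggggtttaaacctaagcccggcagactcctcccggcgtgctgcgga
Cdk1 promoter, chr10:69352913-69353162, minus strand: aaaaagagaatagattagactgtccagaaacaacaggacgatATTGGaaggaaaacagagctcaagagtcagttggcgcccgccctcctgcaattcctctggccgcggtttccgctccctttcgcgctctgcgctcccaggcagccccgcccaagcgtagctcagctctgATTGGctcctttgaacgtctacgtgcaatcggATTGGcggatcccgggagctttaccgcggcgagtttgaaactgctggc
The box was found on either strand in 27 of 36 cell cycle genes with a promoter in the table , against 39.8% of the 12215 tested genes and 37.5% of all 27025 genes. It was held by 6 of 16 immediate early genes (37.5%) and 4 of 16 stretch and fetal genes (25.0%).

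**Figure D4:**
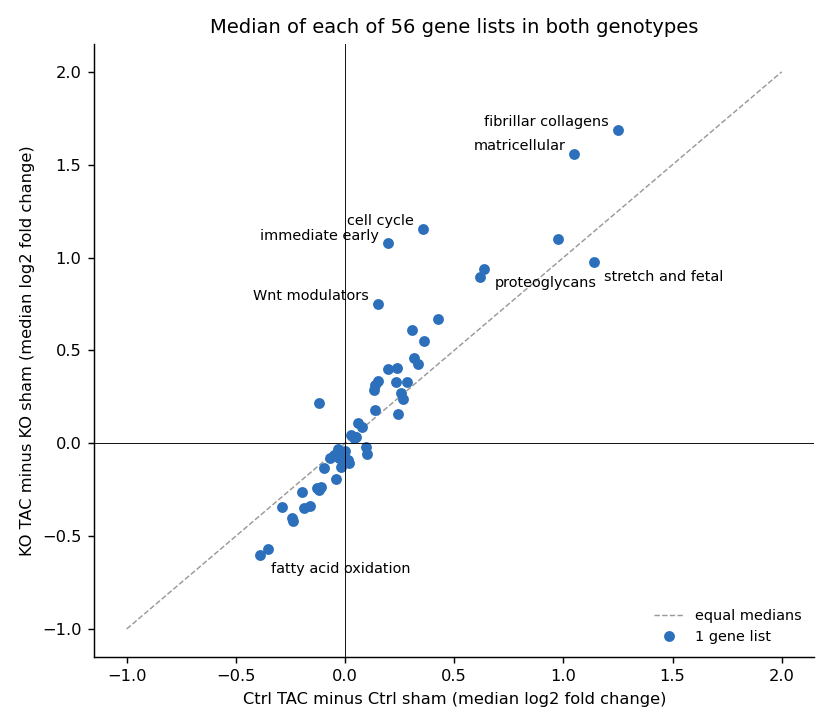
Median log2 fold change of TAC against sham for the 56 gene lists that are not cell type markers, in Ctrl mice (horizontal axis) and KO mice (vertical axis), 1 point per list, with equal medians on the dashed line. Immediate early genes (1.08 in KO, 0.20 in Ctrl) and cell cycle genes (1.16 and 0.36) lie above the line, and stretch and fetal genes (0.97 and 1.14) below it.

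Over all genes, the interaction passed the adjusted test for 2 of 18275 genes (0.0109%), Dpm1 and Lrrc14b. Neither passed with either animal number series as a term or in 7 of the 16 fits without 1 library, Lrrc14b missed also without the library labelled KO TAC 4 (interaction adjusted p = 0.0545) and Dpm1 also without Ctrl sham 4 or Ctrl TAC 2 and with no filter on low counts. DESeq2 called 132 genes, both included. Dpm1, the catalytic subunit of dolichol-phosphate mannose synthase, which supplies mannose for protein glycosylation (chr2:168209048-168230591, minus strand), had 42.4, 41.1, 43.8 and 45.2 CPM in KO sham and 22.8, 19.5, 18.4 and 26.7 CPM in KO TAC, a difference of -0.98 ± 0.14. Ctrl animals had 22.9, 21.3, 29.9 and 21.7 CPM after sham and 40.6, 36.7, 36.7 and 25.6 CPM after TAC, a change of 0.54, so the direction was opposite in the genotypes and the KO sham libraries lay above all Ctrl sham libraries (interaction adjusted p = 0.0168). Dpm1 lies within the predicted gene Gm20716 on the same strand, whose counts moved the opposite way in each group: 0, 3.85, 0 and 0 CPM in KO sham, 25.4, 36.7, 33.4 and 14.9 CPM in KO TAC, 19.7 to 35.3 CPM in Ctrl sham and 2.85 to 20.1 CPM in Ctrl TAC. Their sum was 42.4 to 45.3 CPM in KO sham, 41.6 to 56.2 CPM in KO TAC, 49.6 to 57.0 CPM in Ctrl sham and 40.6 to 45.8 CPM in Ctrl TAC, so the KO groups overlapped in the sum, and how shared reads were assigned to the pair is not given in the sources used here. Lrrc14b, a leucine-rich repeat protein of striated muscle (chr13:74359578-74364005, minus strand), had 11.6, 11.1, 12.3 and 12.9 CPM in KO sham and 5.51, 5.46, 6.00 and 5.29 CPM in KO TAC (-1.10 ± 0.09), against a change of -0.25 in Ctrl (interaction adjusted p = 0.0168). The next genes by interaction p were taken only from those called in KO TAC, with an average of at least 2 log2 CPM. These were Lhfp, Ldhd, Pex6, Sfrp1 and Col14a1, at an interaction adjusted p of 0.098, followed by Serpine2, Col12a1 and Rab31. In each of these 8 genes the KO effect had the sign of the Ctrl effect and a larger size. For Sfrp1, a Wnt antagonist, it was 1.41 against 0.44, and for Col14a1, a fibril-associated collagen, 2.08 against 1.29. The limit to genes called in KO favours a larger KO effect, so this pattern is no test of one.

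Immune genes rose most evenly for macrophages. All 12 macrophage markers tested were called higher, with a median of 0.81 and a summed level of 175 to 229 CPM in KO sham against 276 to 386 CPM in KO TAC. A change in the number of cells of a type and a change in RNA per cell cannot be told apart in whole tissue. This holds here and for any marker below. Trem2, a lipid-sensing receptor of tissue macrophages, had 1.22, 1.15, 0.999 and 1.23 CPM in KO sham and 3.09, 3.39, 3.33 and 3.73 CPM in KO TAC and rose by 1.56 ± 0.16, and Lgals3, galectin-3, rose by 1.34 ± 0.19. In the wider list of macrophage states 16 of 23 rose, 1 fell (Lpl, an enzyme that muscle cells make as well) and 6 had no call (median 0.61). Complement genes rose in 15 of 22 cases and fell in 2 (Cfp and Cd59a), with 5 without a call (median 0.67). C4b rose by 1.42 ± 0.14, while C3 overlapped between the groups (adjusted p = 0.92).

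Interferon-stimulated genes rose in 16 of 34 cases, with none lower, 18 without a call and a median of 0.29. Ifi27l2a had 5.64, 4.90, 5.58 and 5.03 CPM in KO sham and 12.2, 17.0, 11.8 and 13.1 CPM in KO TAC (1.35 ± 0.14). Ifit3, a blocker of viral RNA translation, rose by 0.74 ± 0.12, and Gbp6, a guanylate-binding protein, had no call (-0.29 ± 0.28). In Ctrl mice 5 of the 34 were called higher, beside 10.4% of all genes, and none lower, with a median of 0.13. An unadjusted interaction p under 0.05 was found for 8 of the 34, beside 11.1% of all genes tested, and none passed the adjusted test. The chemokine list had 7 rises (23.3%, beside 17.8% of all genes tested) and 4 falls (13.3%, beside 16.5%), Ccl11, Cxcl14, Ccl24 and Cxcl12. It had 19 genes without a call among 30 (median 0.46). Without the library labelled KO TAC 4 it had 5 rises and 3 falls, Ccl24 being lost (adjusted p = 0.151), and Ccl24 was not called in 9 of the 16 fits without 1 library or with either animal number series as a term.

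B cell markers rose in 7 of 8 cases, Pax5 having no call, with a median of 1.05, but at low levels and unevenly over animals. Igkc, the immunoglobulin kappa constant gene, had 1.53, 2.40, 2.41 and 3.92 CPM in KO sham and 8.33, 12.7, 9.68 and 1.39 CPM in KO TAC, the library labelled KO TAC 4 lying below all KO sham libraries. The rise was 1.64 ± 0.56 with that library (adjusted p = 0.0371) and 2.00 without it, and the call was lost in the fit to the 8 knockout libraries alone and without any of KO sham 1 to 3 and KO TAC 1 to 3. Ighm, the constant part of the IgM heavy chain, had 2.64 to 3.46 CPM in KO sham and 4.49 to 6.59 CPM in KO TAC. The summed marker level was 5.20 to 8.79 CPM in KO sham and 15.7, 22.4, 18.7 and 8.43 CPM in KO TAC 1 to 4. With the animal numbers beginning with 33 as a term in the fit, none of the 8 B cell markers was called, whereas 7 were called without the library labelled KO TAC 4, 3 without KO TAC 3 and 4 without KO sham 1 or without KO TAC 2. In Ctrl mice none of the 8 was called (median 0.30). An unadjusted interaction p under 0.05 was found for 2 of the 8, beside 11.1% of all genes tested, and none passed the adjusted test.

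Markers of heart muscle were abundant in all 8 libraries, as the tissue label states. The lists of activated fibroblast and macrophage markers had the most rises relative to their size. The summed level of 10 cardiomyocyte markers was 60750 to 66110 CPM in KO sham and 47150 to 49830 CPM in KO TAC, with 6 lower and 4 without a call (Actc1, Mb, Actn2 and Ttn). Markers of activated fibroblasts rose in 11 of 12 cases, all but Acta2, with a median of 2.28 and a summed level of 96.8 to 120 CPM against 706 to 848 CPM. General fibroblast markers rose in 8 of 12 cases, fell for Scara5 and had no call for Gsn, Dpt and Ddr2, with a summed level of 1309 to 1371 CPM against 1696 to 1955 CPM. Pi16, a marker of resting adventitial fibroblasts, had 33.1 to 50 CPM against 114 to 130 CPM (1.58 ± 0.13). Of the 12 endothelial markers none was called in either direction by edgeR or by DESeq2, 1 had an unadjusted p under 0.05 (Robo4) and the median was -0.03, with summed levels of 1778 to 1995 CPM and 1639 to 1805 CPM. The cell sources of matrix transcripts were not tested.

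The other marker lists were small or near the floor. Lymphatic markers had 5 rises (Pdpn, Mmrn1, Ccl21a, Flt4 and Reln) and 2 without a call among 7, with 3 rises without the library labelled KO TAC 4 (Flt4 and Reln lost), endocardial markers 3 rises (Plvap, Npr3 and Vwf) and 3 without a call, and smooth muscle and pericyte markers 4 rises, 2 falls and 7 without a call. Schwann cell markers had 4 falls, among them Sox10, Kcna1 and Gfra3, and 4 without a call among 8, with a median of -1.30 and a summed level of 16.1 to 20.5 CPM in KO sham and 11.2 to 13.3 CPM in KO TAC. T cell markers had 1 fall (Cd28) among 8, and the lists for mast cells, adipocytes and erythroid cells had no call by edgeR or DESeq2 and no member at an unadjusted p under 0.05. The mesothelial markers Msln and Upk3b were highest in KO TAC 2, at 1.97 and 1.87 CPM, and at or under 0.368 CPM in the other 7 libraries, and no marker of that list was called, whereas without the library labelled KO TAC 4, where they were low, 2 of 4 were called higher. With all libraries 2 of the 4 had an unadjusted p under 0.05, and DESeq2 called 1. Among atrial markers Nppa and Dkk3 rose, Tbx5 fell, and Myl4 and Nr2f2 had no call.

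**Figure D5:**
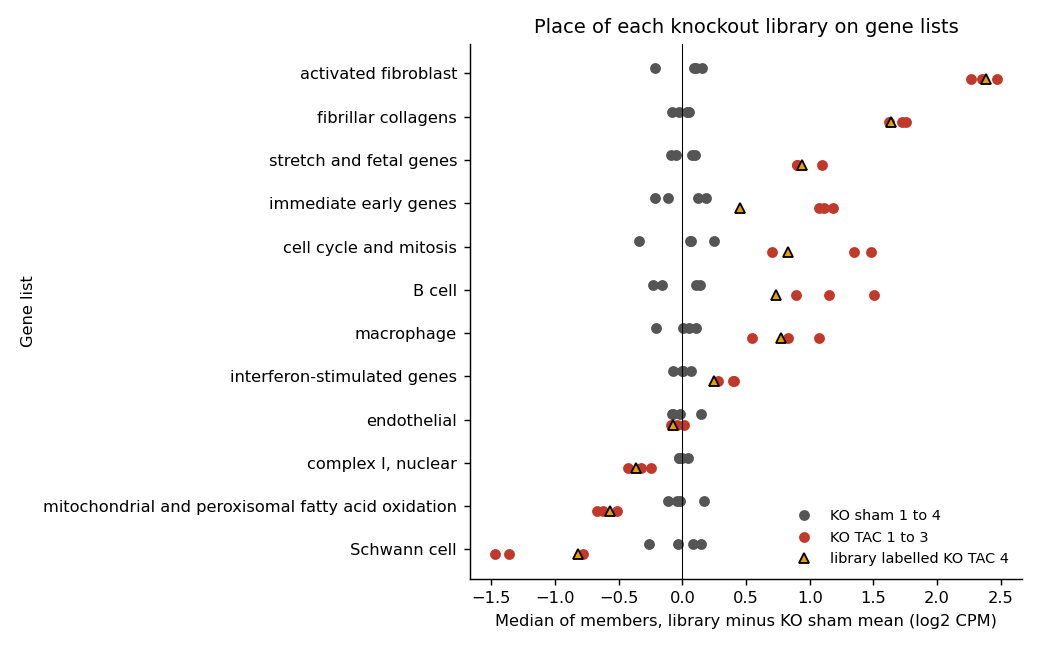
Median over the members of a gene list of the log2 CPM of a library minus the KO sham mean (horizontal axis), 1 row per list, KO sham in grey, KO TAC 1 to 3 in red and the library labelled KO TAC 4 as a yellow triangle. On activated fibroblast markers the triangle, at 2.39, lies within the range of the other KO TAC libraries, and on immediate early genes it lies at 0.46, below their 1.07 to 1.18.

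On the median shift of a list from the KO sham mean, the library labelled KO TAC 4 lay within the range of the other 3 KO TAC libraries for 48 of 74 lists, below it for 16 and above it for 10. Its median shift from the KO sham mean was 2.39 on activated fibroblast markers, where KO TAC 1 to 3 had 2.27, 2.47 and 2.35, and -0.57 on fatty acid oxidation, where they had -0.52, -0.62 and -0.67. It lay lower on immediate early genes (0.46 against 1.07, 1.11 and 1.18) and on B cell markers (0.73 against 0.89, 1.15 and 1.5). By the rule for the called genes farthest from the other KO TAC libraries, it stood above them for Tfrc, the transferrin receptor (193 CPM against 38.0, 68.2 and 176 CPM, where KO TAC 3 was high as well), Gm38431 and Timp1. It stood below them for Apold1, an early gene of endothelial cells (13.4 CPM against 32.03, 23.99 and 68.4 CPM), Cldn5, an endothelial tight junction protein, and Atcay. For Cldn5 it had 8.21 CPM, inside the KO sham range of 8.07 to 10.8 CPM, against 16.6 to 25.8 CPM in KO TAC 1 to 3, and the rise was 0.83 ± 0.28 with it (adjusted p = 0.0328) and 1.07 without it. This call was lost in the fit to the 8 knockout libraries alone and without any of KO sham 1, 2 and 4 and KO TAC 1, 2 and 3. Gm38431 overlaps Raver1 and other genes on the same strand, and its rise was lost without this library (adjusted p = 0.117).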

How the data were processed

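Poly(A) RNA of the heart apex was sequenced on TruSeq libraries, and the processing notes of the submitters name cutadapt 2.3, FastQC, HISAT2 2.1.0, edgeR 3.26.1 and the build GRCm38. The authors deposited whole-number raw counts per gene, not normalised. The counting program, its annotation release and its use of strand are not given in the sources used here. Names and positions were taken from a GENCODE annotation of the same build.

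All 16 libraries were fitted in 1 edgeR quasi-likelihood model (edgeR 4.0.16, R 4.3.3) with the 4 groups as coefficients, after filterByExpr and TMM scaling, which left 18275 genes. Interaction is the TAC effect in KO minus that in Ctrl. Alternatives were DESeq2 1.42.0, other scalings, filters and thresholds, animal number series as terms, and fits without each library. The steps were tested on simulated data, where 98.4% of 64 genes changed 4-fold and 41.6% of 77 genes changed 1.5-fold were called (18057 genes). Far fewer genes were changed there than were called in the data, so these shares do not give the power of the real comparison. Each library is a separate animal by its label.

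The members and gene lists were chosen with earlier results of these data known. Genes named are a preset set of 18, the 8 largest rises and falls with an average of at least 2 log2 CPM, up to 3 called genes and the highest uncalled gene of each list, the 10 called genes with the lowest interaction p, and 3 called genes on each side for the library labelled KO TAC 4. The largest rises and falls were taken only among genes whose KO sham and KO TAC libraries did not overlap. Genes beyond this rule, among them list members named because few moved in a direction, isoform partners, Fhl1, Cenpf, Gm20716 and the genes whose promoters are printed, were chosen after their values were seen. Some genes that the rule names are not reported here. Promoters are from RefSeq. Figures were drawn with matplotlib 3.10.9.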

Additional observations from a re-analysis of the deposited data

Results flagged for a closer look

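Of 500 groups of 4 libraries (241 genes and 9 summed lists, in KO sham and KO TAC), 34 had a library whose gap to the nearest of the other 3, as a share of the group's range on the log2 scale, was above Dixon's 95% critical value for 4 samples. Chance gives about 1 group in 20 where genes are not picked by their values. Some genes here were named because 1 library stood out, such as those farthest from the other KO TAC libraries. That rate therefore does not apply to this set. Of the 34 groups, 19 were in KO sham and 15 in KO TAC, and in 6 of them the library was the one labelled KO TAC 4.

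The library labelled KO TAC 4 lay above the others for Cardinal (Gm12295, gap share 0.9), Cxcl14 (0.947) and Gm38431 (0.838), and below them for Nr4a1 (0.905), Cd28 (0.847) and Raver1 (0.967). KO TAC 1 lay above the others for Pdk4 (0.879) and below them for Kcne1 (0.891), Rpl3 (0.894) and Col14a1 (0.889). KO TAC 2 lay above the others for Col3a1 (0.963) and Ndufc1 (0.933) and below them for Reln (0.953), and KO TAC 3 lay above them for Col1a1 (0.833) and Sfrp1 (0.859).

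KO sham 3 lay below the other KO sham libraries for Kcnj3 (0.892), Scn3b (0.903), Ltbp1 (0.84), Pfkm (0.857) and Cd28 (0.923), and above them for Eng (0.836) and Ndufc1 (0.88). KO sham 4 lay above the others for Acot1 (0.844), Cd36 (0.86), mt-Co3 (0.942) and Herpud1 (0.835), and below them for Casq2 (0.868), Igfbp7 (0.863), Mrpl53 (0.887) and Flt4 (0.866). KO sham 1 lay above the others for Gja5 (0.893), Mrps34 (0.977) and Actn2 (0.868), and KO sham 2 lay above them for Gm20716 (1.0), which had no count in the other KO sham libraries.

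The effect of TAC differed between the genotypes by the interaction test for Lrrc14b (-0.86 on the log2 scale, KO minus Ctrl) and Dpm1 (-1.52). Both calls were lost with either animal number series as a term and in 7 of the 16 fits that left out 1 library. For Dpm1 the overlapping gene Gm20716 moved the opposite way in the same libraries, as given above, and its part in the difference was not tested further.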

How the results depend on the processing

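No paired analysis was possible because the replicate numbers were given in accession order and pair no animals. The called total lay between 4831 (animal numbers beginning with 33 as a term) and 6584 (DESeq2) over the alternatives that kept the 0.05 threshold and all libraries, and between 5374 (without KO TAC 3) and 6495 (without Ctrl TAC 2) with 1 library left out. The calls lower in KO TAC fell to 1990 at an adjusted p under 0.01. The interaction count of 2 depended on the setting: it was 132 with DESeq2, 1 with no filter on low counts, and 0 with either animal number series as a term or at an adjusted p under 0.01. With 1 library left out it ranged from 0 to 18, the highest being without Ctrl TAC 4, and it was 0 without Ctrl sham 2, KO sham 1, KO sham 3, KO sham 4, Ctrl TAC 3, KO TAC 1 or KO TAC 2. The Cardinal difference of 1.62 (adjusted p = 0.159) ranged from -0.46 (without the library labelled KO TAC 4, where it reversed) to 1.95 (without KO TAC 2). Beside those given above, the calls of Hspa5, Furin, Fkbp1b, Gja5, Hcn2, Col11a2, Hk2, Rpl22l1, Psph, Tuba4a, Cfp, Igkc, Ighm, Ccl21a, Reln, Gm38431 and Atcay were lost with animal numbers beginning with 33 as a term, those of Furin and Psph also without some of the libraries KO sham 1 to 4, KO TAC 1 and KO TAC 2. Hspa1a reversed, to 3.93, with animal numbers beginning with 33 as a term. The causes were not tested. Counts set the precision of low genes, such as Fmod in KO sham.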
